A study of Homo sapiens with 8 samples.

Results

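EIF2A and 7 other genes for factors that place or hold initiator tRNA on the ribosome, or that start translation outside the usual cap-bound route, were followed through 8 RNA-seq libraries of human cell lines. The 8 genes, EIF2A, EIF2D, MCTS1, DENR, EIF5B, EIF1, EIF1AX and EIF4G2, were chosen by name. Each was found by its RefSeq accession among the 19305 accessions counted per library, so 8 of 8 were measured, and all 8 passed the filter on low counts. The question was whether the other 7 changed when EIF2A was low. HEK293T, a line derived from embryonic kidney, received sodium arsenite, an oxidative stressor, in all 4 of its libraries, with an siRNA against eIF2A in 2 and a control siRNA in 2. H9 is an embryonic stem cell line, with an shRNA against eIF2A in 2 libraries and a control shRNA in 2, and the labels name no arsenite for it. Cell line, arsenite and the kind of knockdown differ together, so their parts in any difference between the lines cannot be told apart. Whether both libraries of a group were grown as separate cultures is not stated, and p-values here cover the spread between libraries alone, which may be technical.

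In the usual route, eIF2 bound to GTP carries the initiator tRNA to the small ribosomal subunit, and oxidative stress such as arsenite lowers this supply through phosphorylation of the eIF2 alpha subunit. The product of EIF2A is a separate protein from that subunit, can bind initiator tRNA without GTP, and has been linked to initiation at non-AUG codons. eIF2D, and the MCTS1 and DENR proteins acting as a pair, can also place tRNA in the ribosome and release used small subunits, and the pair is known for reinitiation after short upstream reading frames. eIF1 and eIF1A control scanning and start codon choice, eIF5B joins the large subunit, and EIF4G2, also called DAP5, encodes a relative of eIF4G that lacks its site for the cap-binding protein eIF4E.

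Start sites are shown for the 8 genes because the factors act where translation starts, and because 1 of the genes does not start at ATG. Each line gives 9 bases before the start codon and 15 bases from it on, 5′ to 3′ on the transcript's strand, with the start codon in capitals. The sequences are those of the GENCODE 29 transcripts paired with the counted RefSeq accessions (GRCh38), and no coordinates are given because the counts were made on hg19.
EIF2A: cgggacaacATGgcgccgtccacg
EIF2D: ccagcagacATGtttgccaaggcc
MCTS1: ccttggatcATGttcaagaaattt
DENR: gtttgtgaaATGgctgctgacatt
EIF5B: tgacaagcaATGgggaagaaacag
EIF1: tcgtatcgtATGtccgctatccag
EIF1AX: gccaccgccATGcccaagaataaa
EIF4G2: gccgccaaaGTGgagagtgcgatt
EIF4G2 was the 1 member of the 8 annotated with a start other than ATG, namely GTG. The mRNA of EIF1 is known for a poor context around its start codon, through which eIF1 limits its own translation. The transcripts otherwise differ in build. EIF5B had the longest coding part with 3660 bases in 24 exons. EIF1AX had 432 coding bases followed by a trailer of 3791 bases, and DENR had 594 coding bases followed by a trailer of 1989 bases. EIF2A had 1755 coding bases in 14 exons and a trailer of 334 bases. GC content over the whole transcript ran from 35.1% for EIF1AX and 38.6% for EIF5B to 46.4% for EIF1 and 52.1% for EIF2D, and was 39.7% for EIF2A.

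Gene counts per library ran from 21837052 to 32318668. Replicates of the HEK293T control siRNA group stood apart, with a chi-square per degree of freedom of 4.91 between them over genes, where 1 is counting noise, against 1.35 to 1.80 in the other groups. The 5 pluripotency markers listed summed to 3500 to 3759 CPM (counts relative to library size) in H9 and to 4.66 to 7.17 CPM in HEK293T, where NANOG and DPPA4 were at 0. Markers of HEK293T, 5 genes, summed to 145 to 169 CPM in HEK293T and 18.3 to 24.1 CPM in H9, but PAX8 among them went the other way, at most 0.087 CPM in HEK293T and 3.09 to 7.18 CPM in H9. Of 6 fibroblast markers, COL3A1, DCN and LUM were near 0 in H9. The sum in H9 was 842.4 and 855.6 CPM with eIF2A shRNA and 973.6 and 979.8 CPM with control shRNA, most of it THY1. COL1A1 and COL1A2 ran against that sum in H9, COL1A1 with 118 and 124 CPM with eIF2A shRNA and 88.7 and 87.7 CPM with control shRNA, and COL1A2 with 132 and 138 CPM with eIF2A shRNA and 96.1 and 97.8 CPM with control shRNA. The 5 early germ layer markers summed to under 1 CPM in every H9 library and to 92.4 to 98.3 CPM in HEK293T. Reads assigned to no feature made up 14.98 and 14.95% with eIF2A siRNA and 15.6 and 17.7% with control siRNA in HEK293T. They made up 20.8 and 20.6% with eIF2A shRNA and 18.8 and 18.4% with control shRNA in H9. The part of this share, and of the markers that differ between groups, in the results was not tested.

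EIF2A was low in both knockdowns. In HEK293T it had 5.58 and 5.98 CPM with eIF2A siRNA, against 17.5 and 18.3 CPM with control siRNA (CPM scaled with TMM factors). In H9 it had 5.03 and 4.67 CPM with eIF2A shRNA, against 15.8 and 14.8 CPM with control shRNA. The knockdown and control libraries did not overlap in either line. Groups of 2 libraries can lie apart without a change, and the share of all genes whose groups lie apart was not computed, here or below. As tested, the remaining level of EIF2A was 32.2% of control in HEK293T (95% interval of the fold, 0.28 to 0.37) and 31.7% in H9 (0.27 to 0.37). With the trend of counts with GC content and length removed, a second fit described with the H9 results, it was 30.1% in HEK293T and 21.8% in H9, a called difference of -0.46 in log2 fold change (adjusted p = 0.012). By levels per transcript length, given below, the remaining level in H9 was higher than as tested. These are bulk libraries, so fewer cells that express the gene and less RNA per cell cannot be told apart. The knockdown libraries hold 110 to 173 reads of EIF2A each, for a counting error of 7.60 to 9.53% a library, while the other members have 223 reads or more.

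**Figure D1:**
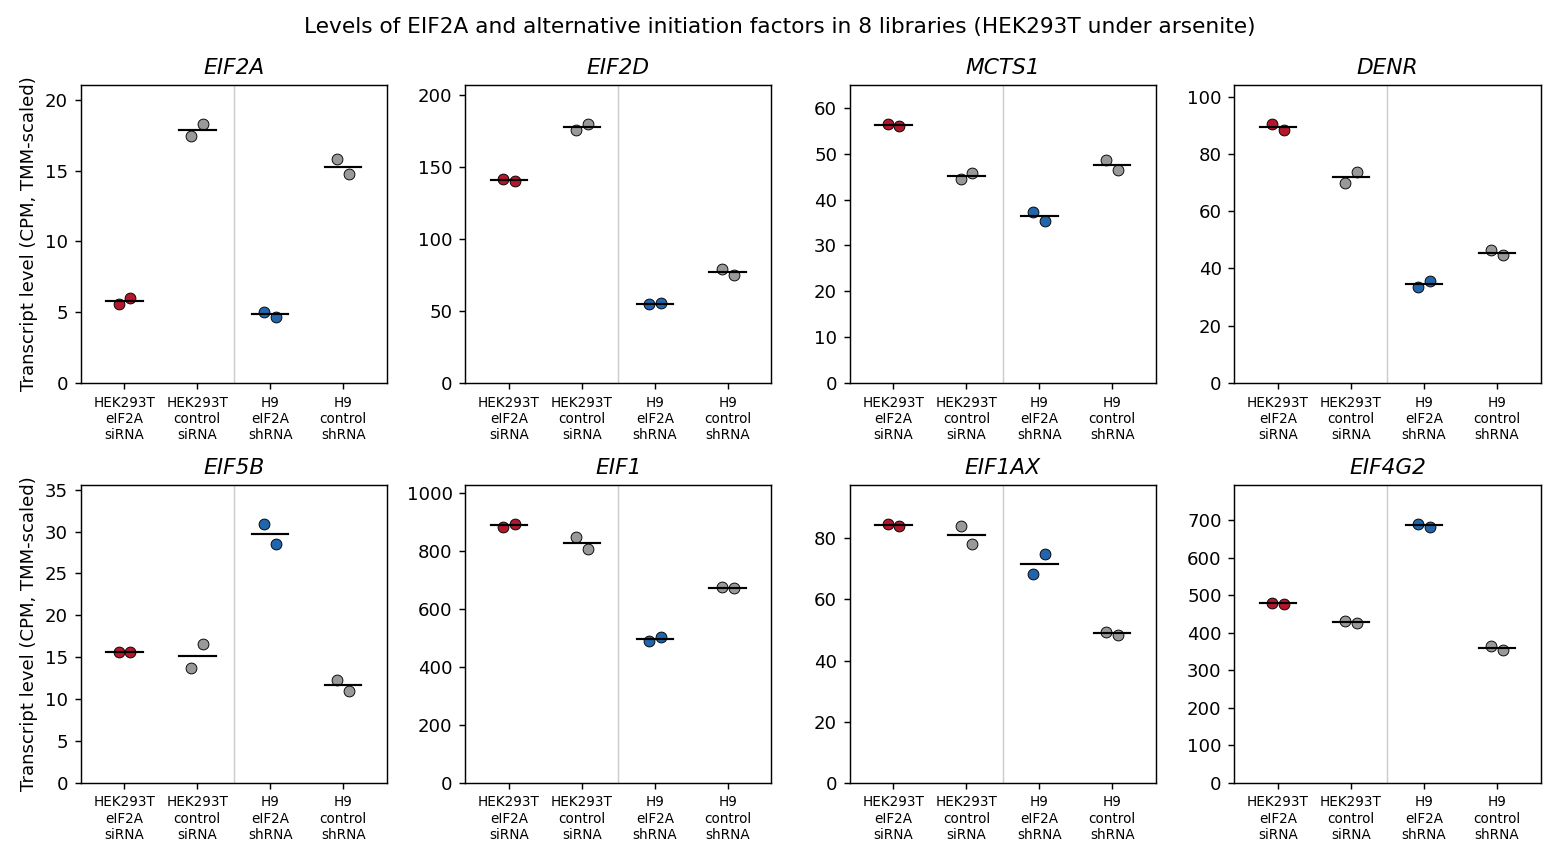
CPM of the 8 genes in each of the 8 libraries, 1 panel a gene, with knockdown left of control in each line and a bar at the mean of each pair of libraries. EIF2A lies near 5 CPM in all 4 knockdown libraries and near 15 to 18 CPM in the controls, and EIF5B is the member whose HEK293T groups overlap.

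Levels of different genes were compared per transcript length, as TPM, in which counts are divided by transcript length and scaled to a common total. EIF1 and EIF4G2 were the most abundant members in every library, and EIF2A and EIF5B the least. EIF1 had 695 and 706 TPM with eIF2A siRNA and 680.5 and 626 TPM with control siRNA in HEK293T, and 464 and 472 TPM with eIF2A shRNA and 505 and 496 TPM with control shRNA in H9. EIF2A had 4.65 and 5.01 TPM with eIF2A siRNA, against 14.8 and 15.1 TPM with control siRNA, and in H9 5.04 and 4.65 TPM with eIF2A shRNA, against 12.5 and 11.6 TPM with control shRNA. Scaled this way, the H9 fall of EIF2A was smaller than in CPM, so its remaining level there depends on the scaling. EIF2A thus stood well below its fellow tRNA-placing factors in the control libraries too. In the control libraries EIF2D had 164 and 162 TPM in HEK293T and 68.7 and 64.2 TPM in H9, MCTS1 78.3 to 83.2 TPM in both lines, and DENR 47.2 and 48.1 TPM in HEK293T and 29.1 and 27.7 TPM in H9.

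The order of the members shifted in a few places. In HEK293T with eIF2A siRNA, EIF2A at 4.65 and 5.01 TPM overlapped with EIF5B at 4.95 and 4.98 TPM. With control siRNA the genes lay apart, EIF2A at 14.8 and 15.1 TPM and EIF5B at 4.42 and 5.19 TPM. In H9 with eIF2A shRNA, EIF5B reached 11.8 and 10.8 TPM and lay above EIF2A, against 3.71 and 3.28 TPM with control shRNA, below EIF2A. EIF1AX had 34.0 and 37.0 TPM with eIF2A shRNA and lay above DENR at 26.7 and 28.3 TPM, whereas with control shRNA EIF1AX had 19.4 and 18.8 TPM and lay below DENR. Summed over the 7 members other than EIF2A, the level was 1245 and 1254 TPM with eIF2A siRNA and 1214 and 1147 TPM with control siRNA in HEK293T. In H9 the sum was 1058 and 1058 TPM with eIF2A shRNA and 867 and 840 TPM with control shRNA, and the groups did not overlap in either line. EIF1 and EIF4G2 made up most of these sums. The H9 rise lay mostly in EIF4G2. This gene had 381 and 374 TPM with eIF2A shRNA and 159 and 152 TPM with control shRNA. Its log2 fold change in H9 was 0.94 as tested but 0.23 in the second fit. EIF5B and EIF1AX rose too, EIF1 and EIF2D were lower, and MCTS1 and DENR overlapped between the H9 groups. The H9 sum thus shows no joint rise of the 7 members. Over 14489 genes, level per length was itself related to GC content (Spearman's rho 0.31) and to length (Spearman's rho -0.37), a description across genes that bears on any order of genes.

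**Figure D2:**
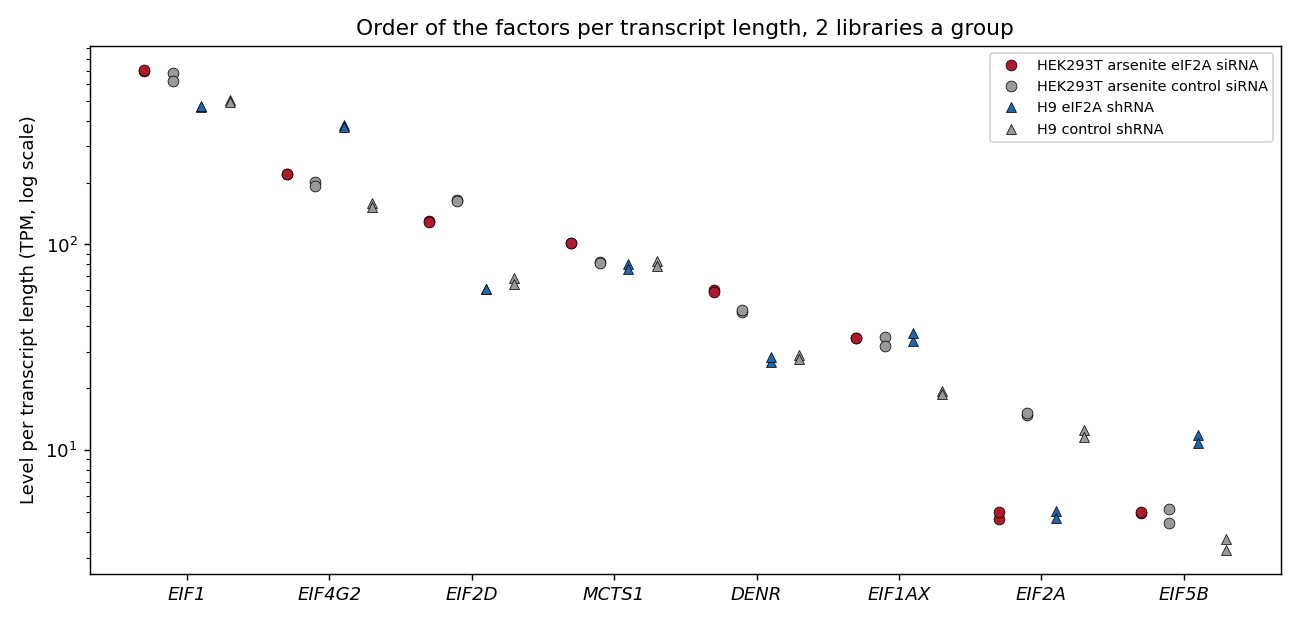
Level per transcript length (TPM, log axis) of the 8 genes in each library, with the 4 groups marked by colour and shape. EIF1 and EIF4G2 are at the top in every group, and EIF2A and EIF5B at the bottom, where they exchange places between the H9 groups.

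In HEK293T under arsenite, the 7 other factors did not move in 1 direction. MCTS1 and DENR, EIF4G2 and EIF1 were higher with eIF2A siRNA, EIF2D was lower, and EIF5B and EIF1AX did not pass the test. With edgeR's quasi-likelihood test at a Benjamini-Hochberg adjusted p under 0.05, 4 of 7 were called higher and 1 of 7 lower, against 14.1% of all 14565 genes tested called higher and 14.7% called lower (28.7% in either direction). The median log2 fold change of the 7 was 0.10, and that of all genes was -0.00. Taken without sign, the medians were 0.16 for the 7 and 0.16 for all genes.

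Among the factors that can place tRNA without eIF2, EIF2D went down and the MCTS1 and DENR pair went up. EIF2D had 141.6 and 140.4 CPM with eIF2A siRNA, against 176.0 and 180.1 CPM with control siRNA. MCTS1 had 56.5 and 55.9 CPM with eIF2A siRNA and 44.6 and 45.8 CPM with control siRNA. DENR had 90.5 and 88.5 CPM with eIF2A siRNA and 69.9 and 73.7 CPM with control siRNA. None of the 3 had overlapping groups, for which no share over all genes was computed. The log2 fold change was -0.34 ± 0.04 for EIF2D (SE, adjusted p = 8.4e-09). As tested, MCTS1 and DENR rose by nearly the same amount, 0.31 ± 0.05 for MCTS1 (adjusted p = 5.8e-06) and 0.31 ± 0.04 for DENR (adjusted p = 1e-06). The amounts differed with the GC and length trend removed, at 0.15 for MCTS1 and 0.25 for DENR, and in H9 at -0.43 and -1.08. Their proteins are homologous to the parts of eIF2D and act together as a heterodimer. The pair and the single-chain factor moved in opposite directions in these cells.

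EIF4G2 had 479 and 477 CPM with eIF2A siRNA and 430.3 and 425 CPM with control siRNA, a log2 fold change of 0.16 ± 0.03 (adjusted p = 9.9e-05). EIF1 had 884 and 894 CPM with eIF2A siRNA and 849 and 807 CPM with control siRNA, a log2 fold change of 0.10 ± 0.03 (adjusted p = 0.0093). Neither gene's groups overlapped, again without a share over all genes, and both changes were small. The EIF1 call was lost without control siRNA replicate 2 (log2 fold change 0.07, adjusted p = 0.062), without eIF2A siRNA replicate 2 (0.10, adjusted p = 0.086) and in a fit of the HEK293T libraries alone (0.11, adjusted p = 0.057). EIF1B, a near-copy of EIF1 whose shared reads may have been set aside as multiply aligned, had 69.2 and 70.0 CPM with eIF2A siRNA and 62.3 and 68.8 CPM with control siRNA (adjusted p = 0.21).

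EIF1AX, for the scanning factor eIF1A, had 84.8 and 84.1 CPM with eIF2A siRNA and 84.0 and 78.3 CPM with control siRNA. EIF5B, for the GTPase of subunit joining, had 15.6 and 15.6 CPM with eIF2A siRNA, between the 13.7 and 16.6 CPM of the control siRNA libraries. The 95% interval of the log2 fold change was -0.03 to 0.16 for EIF1AX (adjusted p = 0.35) and -0.15 to 0.20 for EIF5B (adjusted p = 0.86). Neither gene is thereby shown to be unchanged. HMOX1, a gene induced by arsenite, was at 196 and 196 CPM with eIF2A siRNA and at 127 and 120 CPM with control siRNA, while the 4 arsenite markers together summed to 611 and 603 CPM and to 644 and 650.0 CPM in those groups. Most of that sum was DNAJB1, with 406 and 398 CPM with eIF2A siRNA and 504 and 517 CPM with control siRNA. HSPA1B was lower as well, at 8.33 and 9.19 CPM against 12.5 and 13.3 CPM, and HSPA1A was near 0 in every library. In H9 HMOX1 had 101.9 and 99.5 CPM with eIF2A shRNA and 147 and 146 CPM with control shRNA, and the 4 markers summed to 217 and 217 CPM and to 293 and 291 CPM in those groups. Whether these differences have a part in the members' changes was not tested.

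In H9 all 7 factors were called, in both directions. EIF5B, EIF4G2 and EIF1AX were higher with eIF2A shRNA, by 2.55-fold, 1.92-fold and 1.46-fold. EIF1, DENR, MCTS1 and EIF2D were lower, at 71.7 to 76.6% of control. The calls, 3 of 7 higher and 4 of 7 lower by the same edgeR test, stood in a comparison in which 37.0% of all genes were called higher and 34.3% lower (71.3% in either direction), so being called is common there. The median log2 fold change of the 7 was -0.38, and that of all genes was 0.02. Taken without sign, the medians were 0.48 for the 7 and 0.47 for all genes.

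All 3 tRNA-placing factors fell in H9. EIF2D had 54.9 and 55.5 CPM with eIF2A shRNA, against 79.0 and 74.9 CPM with control shRNA. MCTS1 had 37.3 and 35.4 CPM with eIF2A shRNA, against 48.6 and 46.4 CPM with control shRNA. DENR had 33.6 and 35.7 CPM with eIF2A shRNA, against 46.3 and 44.6 CPM with control shRNA. Knockdown libraries lay below both controls for each of the 3, and no share of this over all genes was computed. The log2 fold changes were -0.48 ± 0.05 for EIF2D (adjusted p = 1.8e-11), -0.38 ± 0.06 for MCTS1 (adjusted p = 1.5e-07) and -0.39 ± 0.06 for DENR (adjusted p = 1.6e-07). Scaled per length instead of per read, the groups overlapped for MCTS1, at 80.7 and 76.3 TPM with eIF2A shRNA and 83.2 and 78.3 TPM with control shRNA. They overlapped for DENR as well, at 26.7 and 28.3 TPM with eIF2A shRNA and 29.1 and 27.7 TPM with control shRNA.

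EIF1 fell too, at 490.1 and 501 CPM with eIF2A shRNA and 675 and 671 CPM with control shRNA, a log2 fold change of -0.44 ± 0.03 (adjusted p = 1.3e-14). EIF1B, its near-copy, had 99.2 and 101.4 CPM with eIF2A shRNA and 107.2 and 103.9 CPM with control shRNA (adjusted p = 0.14). EIF1AX had 68.3 and 74.7 CPM with eIF2A shRNA and 49.4 and 48.3 CPM with control shRNA, a log2 fold change of 0.55 ± 0.05 (adjusted p = 2.2e-11). As tested, the mRNAs of the scanning factors eIF1 and eIF1A thus changed in opposite directions. With the GC and length trend removed both were lower, at -0.69 for EIF1 and -0.44 for EIF1AX. EIF4G2 had 691 and 682 CPM with eIF2A shRNA and 364 and 353 CPM with control shRNA, a log2 fold change of 0.94 ± 0.03 (adjusted p = 3.5e-23). EIF5B had 31.0 and 28.5 CPM with eIF2A shRNA and 12.3 and 11.0 CPM with control shRNA, a log2 fold change of 1.35 ± 0.09 (adjusted p = 1.3e-15). No group overlapped with its control for these 4 members, again without a share over all genes.

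**Figure D3:**
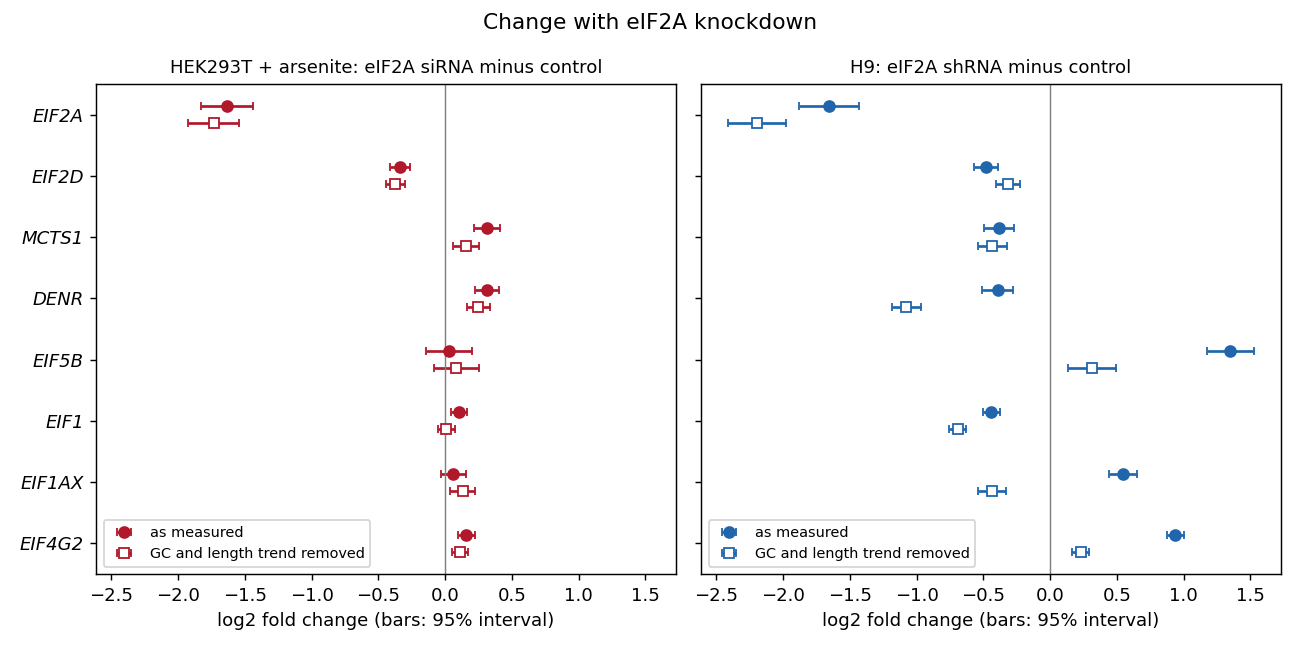
Log2 fold change of knockdown over control with its 95% interval for each of the 8 genes in each line, as tested and with the trend of counts with GC content and length removed. In H9 EIF5B stands at 1.35 as tested and at 0.32 with the trend removed, EIF1AX at 0.55 and at -0.44, while EIF2D, MCTS1, DENR and EIF1 stay below 0.

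The size of the H9 changes has to be read beside a change of the whole library. Over 14489 genes with a known transcript, the log2 fold change in H9 had a Spearman's rho of -0.68 with GC content and of 0.45 with length, both descriptions across genes; in HEK293T both were -0.10. Genes of under 40% GC had a median log2 fold change of 0.99 in H9 and -0.02 in HEK293T. EIF5B, EIF1AX and EIF4G2, the 3 members that rose in H9, are the 3 with the longest transcripts, of 5777, 4427 and 4001 bases. At the GC content and length of the member, the trend over all genes in H9 was a log2 fold change of 1.01 for EIF5B, 0.95 for EIF1AX, 0.68 for EIF4G2, 0.65 for DENR, 0.51 for EIF2A, 0.22 for EIF1, 0.02 for MCTS1 and -0.20 for EIF2D. Whether this trend arose in the cells or in the making of the libraries was not tested.

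With the trend taken out of each library, the split in H9 was 2 of 7 higher and 5 of 7 lower, against 24.0% of 14489 genes called higher and 24.5% lower (48.5% in either direction). EIF4G2 (log2 fold change 0.23 ± 0.03, adjusted p = 7.8e-08) and EIF5B (0.32 ± 0.09, adjusted p = 0.0033) remained higher by much less. EIF1AX turned to -0.44 ± 0.05 (adjusted p = 1.9e-08). DENR (-1.08 ± 0.05, adjusted p = 9.4e-18), EIF1 (-0.69 ± 0.03, adjusted p = 6.4e-19), MCTS1 (-0.43 ± 0.05, adjusted p = 3.2e-08) and EIF2D (-0.31 ± 0.04, adjusted p = 4e-07) were lower as before. EIF2A itself stood at -2.20 ± 0.11, or 21.8% of control. In HEK293T the same step left EIF2D at -0.37, DENR at 0.25 and EIF4G2 at 0.11, still called. It lowered MCTS1 to 0.15 (adjusted p = 0.014), ended the call of EIF1 at 0.01 (adjusted p = 0.87) and brought EIF1AX past the threshold at 0.13 (adjusted p = 0.027), for 4 of 7 higher and 1 of 7 lower against 13.0% of all genes higher and 13.9% lower (26.9% in either direction). EIF2A in HEK293T stood at -1.73.

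**Figure D4:**
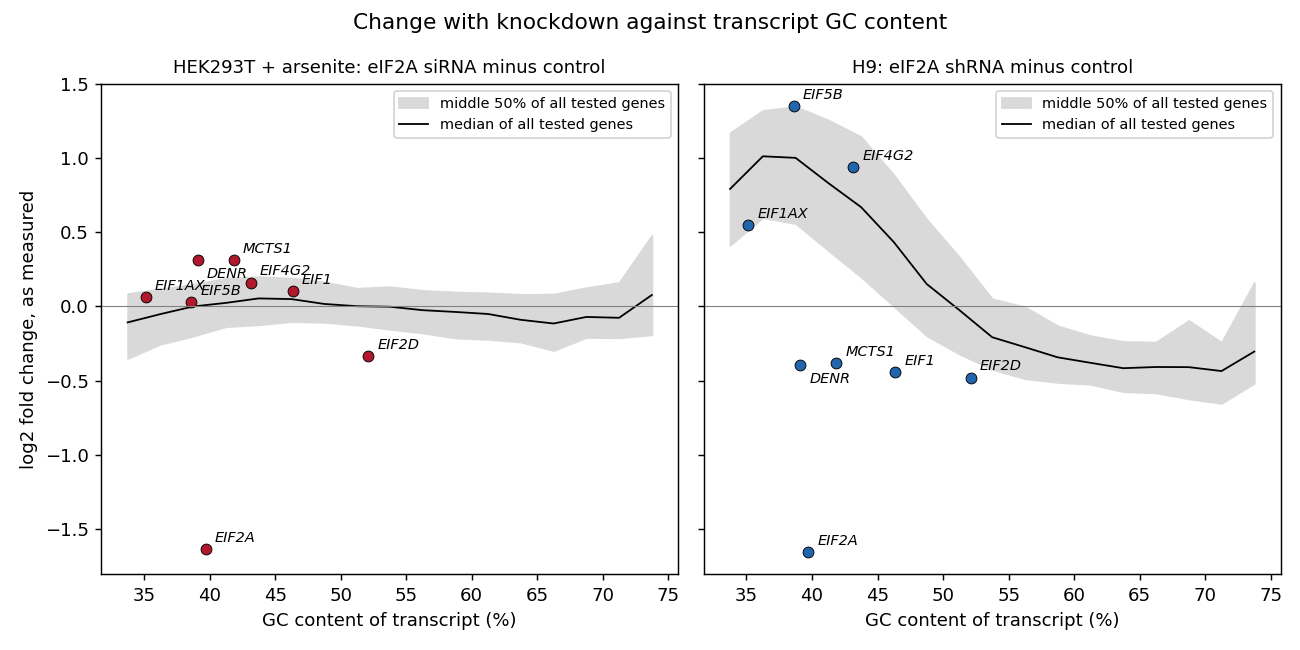
Log2 fold change against transcript GC content (%) in each line, with the median and the middle 50% of all genes in bins of GC content and the 8 genes as points. In H9 the median runs from about 1 below 40% GC to about -0.4 above 60% GC, and in HEK293T it stays near 0.

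The change of each factor was then compared between the lines, as H9 minus HEK293T. All 7 others differed by the edgeR test, 3 upward and 4 downward, where 58.1% of all genes did (31.1% upward and 27.0% downward). EIF2A did not pass, with a difference of log2 fold changes of -0.02 and a 95% interval of -0.33 to 0.29. The MCTS1 and DENR pair differed most plainly in direction, falling in H9 and rising in HEK293T, with differences of -0.70 ± 0.07 for MCTS1 (adjusted p = 5.8e-10) and -0.71 ± 0.07 for DENR (adjusted p = 2.3e-10). EIF1 differed by -0.54 ± 0.04 (adjusted p = 1e-12). The differences were 1.32 ± 0.12 for EIF5B (adjusted p = 3.3e-11), 0.49 ± 0.07 for EIF1AX (adjusted p = 2.6e-07) and 0.78 ± 0.04 for EIF4G2 (adjusted p = 1.9e-16).

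EIF2D was the member with the smallest difference among the 7, -0.14 ± 0.06 (adjusted p = 0.036), and fell in both lines. That difference lost its call in a filter of at least 5 CPM (-0.09, adjusted p = 0.16), under upper-quartile scaling (-0.06, adjusted p = 0.41), and without any 1 of H9 control shRNA replicate 1 (-0.11), H9 eIF2A shRNA replicate 1 (-0.14) or 2 (-0.15), or HEK293T eIF2A siRNA replicate 1 (-0.14) or 2 (-0.15). With the trend removed, the differences of MCTS1 (-0.59), DENR (-1.32) and EIF1 (-0.70) stayed negative and called, that of EIF4G2 was 0.12 (adjusted p = 0.021), that of EIF1AX was -0.57 (adjusted p = 3.7e-08), and those of EIF5B (0.23, adjusted p = 0.13) and EIF2D (0.06, adjusted p = 0.45) were not called. EIF2A then differed by -0.46 (adjusted p = 0.012), and 41.2% of all genes were called (20.5% upward and 20.6% downward).

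Of 47 other initiation factor genes listed by complex, all passed the filter. In HEK293T with eIF2A siRNA 10 were called higher, 11 lower and 26 neither, with a median log2 fold change of -0.01. These are 21.3% higher and 23.4% lower, against 14.1% and 14.7% of all genes. Of 13 genes of eIF3, the large scaffold on the small subunit, 7 were lower and 0 higher, and with the trend removed 8 were lower and 1 higher. In H9 eIF3 was split, with 6 lower and 5 higher, or 6 lower and 4 higher with the trend removed. EIF3G, for its RNA-binding subunit, had 516 and 507 CPM with eIF2A siRNA and 583 and 666 CPM with control siRNA (log2 fold change -0.29 ± 0.04, adjusted p = 4.3e-05). Of 7 genes of eIF2 and its partners 3 were higher and 0 lower, and of 13 genes of eIF4F and its partners 4 were higher and 0 lower. With the trend removed, these were 2 higher and 0 lower for eIF2, and 5 higher and 1 lower for eIF4F. In H9 eIF2 had 5 higher and 1 lower as tested, and 2 higher and 4 lower with the trend removed. For eIF4F in H9 these were 6 higher and 5 lower, and 4 higher and 6 lower. Of all genes in H9, 37.0% were called higher and 34.3% lower as tested, and 24.0% and 24.5% with the trend removed. In HEK293T with the trend removed, 13.0% of all genes were called higher and 13.9% lower. EIF4B, for a helper of the eIF4A helicase, had 404 and 383 CPM with eIF2A siRNA and 314 and 343 CPM with control siRNA (0.26 ± 0.04, adjusted p = 6.1e-07). NCBP3, a nuclear cap-binding protein gene, was at 0.24 ± 0.06 (adjusted p = 0.0033). DHX29, for a helicase of structured leaders, was at -0.40 ± 0.15 (adjusted p = 0.045), with 4.56 and 3.21 CPM with eIF2A siRNA and 4.57 and 5.56 CPM with control siRNA. Without eIF2A siRNA replicate 1 the list held 6 higher and 7 lower, and without eIF2A siRNA replicate 2 it held 6 lower.

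In H9 with eIF2A shRNA 24 of the 47 were called higher, 17 lower and 6 neither, with a median log2 fold change of 0.11, and with the trend removed 14 were higher and 19 lower, with a median of -0.07. These are 51.1% higher and 36.2% lower, against 37.0% and 34.3% of all genes, and with the trend removed 29.8% and 40.4%, against 24.0% and 24.5%. With DESeq2's size factors, which moved the median of all genes to -0.13 from 0.02 in the TMM fit, the split was 20 higher and 22 lower. EIF3A, for the largest eIF3 subunit, had 101.9 and 98.4 CPM with eIF2A shRNA and 38.8 and 35.3 CPM with control shRNA (log2 fold change 1.43 ± 0.05, adjusted p = 6.7e-22; 0.57 with the trend removed). EIF4G3, for another eIF4G scaffold, had 36.6 and 35.7 CPM with eIF2A shRNA and 13.7 and 13.5 CPM with control shRNA (1.41 ± 0.07, adjusted p = 4.2e-18; 0.92 with the trend removed). EIF4EBP1, for a repressor of eIF4E, had 165 and 170 CPM with eIF2A shRNA and 292 and 305 CPM with control shRNA (-0.84 ± 0.03, adjusted p = 1.2e-20; -0.25 with the trend removed). EIF6, for a factor that keeps the subunits apart, had 263 and 255 CPM with eIF2A shRNA and 417 and 421 CPM with control shRNA (-0.69 ± 0.03, adjusted p = 5.2e-19; -0.19 with the trend removed). The directions of these 4 genes, the 2 largest rises and falls of the list by the rule, held in both fits. In contrast, 8 of the 47 were called higher as tested and lower with the trend removed, and 0 the other way. They were EIF2S1, EIF2S3, BZW1, EIF2B1, EIF3H, EIF3M, EIF4E and EIF4E3, named here after their values were seen. The share of all genes that turned in this way was not computed, so the count is not shown to be particular to the list. Of all genes in H9, 71.3% were called in either direction as tested and 48.5% with the trend removed. EIF4E, for the cap-binding protein, was at 0.35 as tested and -0.81 with the trend removed. EIF2S1, for the eIF2 alpha subunit, was at 0.70 as tested and -0.23 with the trend removed.

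Across the 8 libraries, the genes whose log2 CPM most resembled that of EIF2A among 10056 genes were ACAP3 (Pearson's r 0.99), LPCAT4 (0.99), EGFL7 (0.99), HROB (0.99) and PCYT2 (0.99). All 5 were lower with both knockdowns, by smaller amounts than EIF2A. Selection by likeness to EIF2A, itself low in both knockdowns, largely fixed this direction in advance, so it is no separate result. ACAP3 had log2 fold changes of -0.36 ± 0.05 in HEK293T and -0.38 ± 0.06 in H9, and PCYT2, for an enzyme of phosphatidylethanolamine synthesis, had -0.42 ± 0.04 in HEK293T and -0.60 ± 0.05 in H9. None of the 7 other members was near this pattern. The highest was EIF2D (r = 0.44), followed by EIF1 (0.38), MCTS1 (0.18) and DENR (0.17), and the lowest were EIF5B (-0.72) and EIF4G2 (-0.82). These values describe 4 pairs of libraries that share cell line and group, and carry no test.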

How the data were processed

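Polyadenylated RNA was sequenced in 8 libraries, 2 in each of 4 groups. The submitters' processing notes name cutadapt, STAR 2.5.2b and hg19. Counting program, strand setting and annotation are not given in the labels or notes, and genes that overlap an antisense gene may share counts with it. The authors deposited raw counts for each RefSeq accession. Every file ends in 5 special counters, which entered neither library sizes nor tests. Those counters put 14.95 to 20.84% of reads in no feature and 4.11 to 4.54% as multiply aligned.

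Symbols came from RefSeq (18884 accessions) and GENCODE (229), and 192 had none. The test was that of edgeR 4.0.16 in R 4.3.3 (filterByExpr, TMM, robust quasi-likelihood F test, two-sided), fitting 4 group means over all 8 libraries (residual degrees of freedom, 4). P-values were Benjamini-Hochberg adjusted over all 14565 genes, and a gene was called under 0.05. TPM used the length of the paired GENCODE 29 transcript. The trend with GC content and length was a loess fit per library (span 0.3), removed as an offset in a second fit of 14489 genes. The procedure was run on simulated data, with an outcome not reported here. The simulation gave all genes and libraries the same spread, so it does not cover the wider spread of the HEK293T control siRNA replicates. CPM and intervals cover the spread between libraries or counting error only.

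The members and the list of 47 other factors were chosen with earlier results of these data known. Named were all 8 members, their near-copies, the 2 called genes of that list with the largest rise and fall per line at a mean of at least 5 CPM, and the 5 genes at that level most correlated with EIF2A (log2 CPM, prior count 2). The MCTS2 near-copy and the marker TDGF1 were not analysed here. Alternatives were other scaling factors, filters, DESeq2 1.42.0, fits per line, a set-number block, the trend removed, transcript lengths, a threshold of 0.01 and each library left out in turn. Ribosome profiling was not analysed here.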

Additional observations from a re-analysis of the deposited data

Results flagged for a closer look

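The effect of eIF2A knockdown on 7 factors differed between H9 and HEK293T by a test of the difference itself (edgeR's interaction contrast, H9 minus HEK293T, adjusted over all genes). In the same contrast 58.1% of all 14565 genes were called, and 41.2% of 14489 genes in the fit with the trend removed, so being called is common. The difference of log2 fold changes was 1.32 for EIF5B, 0.78 for EIF4G2 and 0.49 for EIF1AX. It was -0.71 for DENR, -0.70 for MCTS1, -0.54 for EIF1 and -0.14 for EIF2D. Cell line, arsenite and the kind of knockdown change together in this contrast and cannot be told apart. With the trend of counts with GC content and length removed, the differences of DENR (-1.32), MCTS1 (-0.59) and EIF1 (-0.70) kept their sign and their call. That of EIF4G2 shrank to 0.12 (adjusted p = 0.021), and was not called with the set-number block added (adjusted p = 0.055). EIF1AX turned to -0.57, and EIF5B (0.23) and EIF2D (0.06) were no longer called. EIF2D also lost its call with the block alone (adjusted p = 0.064).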

How the results depend on the processing

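Over the alternatives, 545 of 593 recomputed values kept their direction and their side of the threshold, or stayed within 1.5 times for counts and within 1 SD for levels. Part of the 593 could hardly move. The threshold of 0.01 reused the same fold changes, and leaving out a library of 1 line left the other line's fold changes nearly the same. Both knockdowns of EIF2A, and the calls of EIF2D, MCTS1, DENR and EIF4G2 in each line and of EIF5B and EIF1 in H9, held under every alternative tested. No alternative tested levels per length, in which the H9 groups of MCTS1 and DENR overlapped. In H9, EIF2D then had means of 60.5 TPM with eIF2A shRNA and 66.4 TPM with control shRNA. EIF1 had means of 468 and 500 TPM in those groups, and both falls were smaller than in CPM. With the GC and length trend removed, EIF1AX in H9 was -0.44 (log2 fold change, as are the following), its difference between lines -0.57, the EIF2D difference 0.058, and 14 other initiation factors were higher in H9; with the set-number block added, these were -0.44, -0.57, 0.058 and 14. The EIF2A difference between lines, not called as tested, was called at -0.46 with the trend removed and at -0.47 with the block added. It was not called at 0.061 under upper-quartile scaling, 0.028 with the 5 CPM filter, and -0.086 to 0.027 with 1 library left out. EIF5B in HEK293T ran from -0.085 to 0.192 with 1 library left out, and was negative without control siRNA replicate 1. With 1 library left out, other initiation factors in HEK293T numbered 6 to 13 higher and 6 to 13 lower; lower ones numbered 7 with DESeq2 and 7 at a threshold of 0.01. For the change in counts the cause was not tested, other than that leaving out a library leaves fewer samples. The calls over all genes in HEK293T numbered 2751 with DESeq2, which gave 3671 genes no adjusted p. The longest coding transcript as length tested MCTS1 alone, since the other members have the same length either way; its mean TPM was 86.8, against 85.6, and the other members' TPM moved only through the rescaling of the library.

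Set numbers did not pair the libraries: deviations of same-numbered libraries correlated at r = -0.05 in HEK293T and 0.02 in H9. With the set number as a replicate block, the EIF2D difference between lines stood at -0.14 with adjusted p = 0.064, and with the block and the trend removed the EIF4G2 difference was 0.12 with adjusted p = 0.055. EIF2A was measured by few reads, which limits its difference between lines, and a library left out leaves a group with 1 sample assumed to vary like the others.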
